A study of Mus musculus with 20 samples.

Results

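The transcripts of 9 genes of TGF-beta and activin signalling were followed through cultured cancer-associated fibroblasts (CAFs), the fibroblasts of the tumour stroma. They were picked by name, 9 of the 32285 genes in the deposited table, and cover the ligand genes Tgfb1, Tgfb2, Tgfb3 and Inhba, the latency gene Ltbp1, the receptor genes Tgfbr1, Tgfbr2 and Tgfbr3, and the inhibitor gene Smad7. All 9 passed the filter for testing, which asked for at least 1 TPM (a transcript level per length, scaled to the same total in each library) in at least 5 libraries. Their means over the 20 libraries ran from 13.0 TPM for Tgfbr3 to 98.6 TPM for Ltbp1, and 33.8% and 85.4% of the genes tested lay below these.

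TGF-beta ligands are secreted as latent complexes, held by their own propeptide and tethered to the matrix by latent TGF-beta binding proteins, and must be released before they can bind. The active ligand, like activin, joins type II with type I receptor kinases, which phosphorylate SMAD proteins that then enter the nucleus. In fibroblasts this pathway is known for driving matrix production and the contractile, myofibroblast-like state, and Smad7 is induced by it and blocks the receptors in turn.

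The study belongs to work on macropinocytosis, the bulk uptake of extracellular fluid, in CAFs of pancreatic cancer. The cells were immortalized primary murine CAFs, kept for 32 h in 1 of 4 conditions with 5 libraries each. At 0.2 mM glutamine cells had either 25 uM EIPA, an amiloride derivative that blocks sodium-proton exchangers and with them macropinocytosis, or vehicle. At 4 mM glutamine cells had either the cytokine IL-1a at 25 pg/mL or vehicle. DMSO, the EIPA vehicle, was in all 4 groups per the treatment protocol, so every comparison shares it. That protocol writes 25 mM for EIPA, but the titles write 25 uM and are followed here. The labels name neither separate lines nor separate cultures for the replicates, so the p-values below measure only the spread between these samples, which may be technical.

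Each library summed to the same fixed total, so sequencing depth is unknown, and 11749 to 12045 genes reached 1 TPM per library. Within the 4 mM groups 3 libraries, IL-1a replicates 1 and 5 and vehicle replicate 5, stood apart from the other 7 in Ccn1, a YAP target gene (201 to 235 against 379 to 599 TPM), and in Dcn, which encodes decorin (371 to 398 against 120 to 263 TPM). Of 13 fibroblast markers 11 passed the filter, and Lum and Fap lay near 0 with means of 0.1 and 0.0505 TPM. The summed fibroblast markers ran from 2890 to 3275 TPM with EIPA, 4930 to 5853 TPM in 0.2 mM vehicle, 10022 to 13014 TPM with IL-1a and 11932 to 13411 TPM in 4 mM vehicle. All 6 mesothelial markers passed, and their sum moved the same way, at 186 to 294, 334 to 473, 557 to 981 and 639 to 1091 TPM. Of 9 leukocyte markers 3 passed (Cd14, Cd68 and Csf1r), with sums of 22.3 to 25.2, 7.85 to 10.8, 14.9 to 30.6 and 15.2 to 19.9 TPM, while Adgre1 and Cd3e were listed at 0 in every library and Ptprc averaged 0.0005 TPM. The epithelial sum (3 of 6 passed) was 88.5 to 119.9, 133 to 206, 167 to 362 and 186 to 397 TPM, with Epcam at a mean of 0.103 TPM. Most of it came from Krt19 (mean 176 TPM), which is also on the mesothelial list. The endothelial sum (1 of 6 passed) reached at most 10.4 TPM, the mural sum (1 of 6) 12.6 TPM and the Schwann cell sum (2 of 5) 37.2 TPM, with Sox10 listed at 0 throughout. The share of TPM from mitochondrially encoded genes was 5.69% ± 0.63 with EIPA, 8.87% ± 0.28 in 0.2 mM vehicle, 10.0% ± 0.51 with IL-1a and 10.4% ± 1.17 in 4 mM vehicle (SD, n = 5). With those genes left out, 6 of the 7 EIPA calls described below held, all but that of Tgfbr1. The part of the marker shifts in the results was not tested, and in bulk RNA fewer cells of a type and less RNA per cell cannot be told apart.

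Changes are log2 fold changes of TPM + 1 with their SE, from limma fitted once over the 12350 genes and 20 libraries, and a gene was called at a Benjamini-Hochberg adjusted p under 0.05. Because 1 TPM was added, a fold understates the TPM ratio of a low gene. The median gene was higher by 0.14 at 0.2 mM than at 4 mM glutamine in vehicle, against 0.02 for EIPA and 0.01 for IL-1a. For that reason low and high glutamine are compared relative to the median gene, while calls and every limma adjusted p rest on the unshifted values. A value given relative to the median gene was not itself tested, also where an adjusted p stands beside it.

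With EIPA at 0.2 mM glutamine, 7 of the 9 genes were called, 3 higher (Tgfb1, Tgfbr1 and Tgfbr3) and 4 lower (Tgfb2, Tgfb3, Inhba and Ltbp1), where 27.4% of all genes tested were called higher and 21.1% lower. Of the genes that fell, Tgfb2 fell most, with a mean TPM 6.21 times higher in vehicle, followed by Inhba (2.55 times) and Ltbp1 (1.67 times). At 0.2 mM against 4 mM glutamine in vehicle all 9 were called, 3 higher (Tgfb1, Inhba and Smad7) and 6 lower, where 45.4% of genes were called higher and 27.9% lower. With IL-1a a single gene of the 9, Tgfbr3, was called, and it was higher, where 0.259% of genes were called higher and 0.0243% lower. EIPA and glutamine comparisons share the 0.2 mM vehicle libraries, and glutamine and IL-1a comparisons share the 4 mM vehicle libraries, so their values are set side by side without a test across them.

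**Figure D1:**
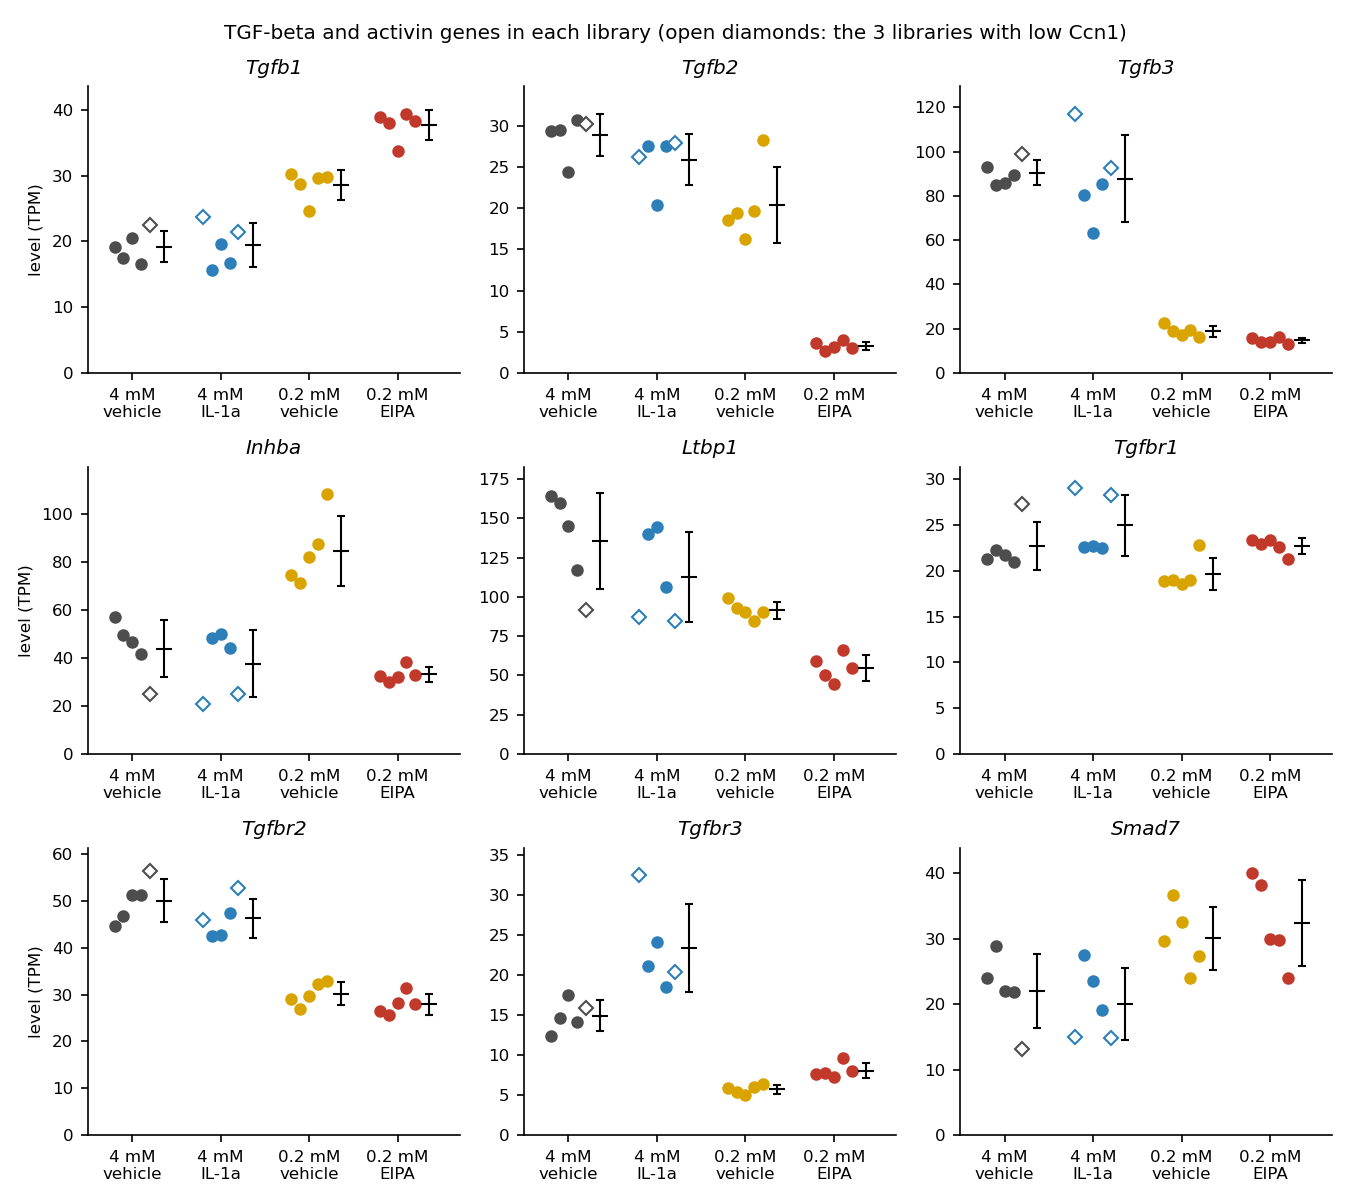
Level in TPM (vertical axis, from 0) of the 9 genes in each of the 20 libraries, by group, with the mean and SD (n = 5) beside the points; open diamonds are the 3 libraries with low Ccn1. Tgfb2 drops to 2.63 to 3.98 TPM with EIPA, Tgfb3 is at 63.3 TPM or more in every 4 mM library and at 22.7 TPM or less in every 0.2 mM library, and the open diamonds lie at the low end for Inhba, Ltbp1 and Smad7 in their groups.

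The 3 genes that fell with EIPA without any overlap with vehicle were Tgfb2, Inhba and Ltbp1, and the 250 bases before their start sites are printed here because these members fell together in that comparison. At low glutamine they did not share a direction, since Inhba was higher and the other two lower. The windows come from RefSeq on GRCm38.p6 and run 5′ to 3′ on the gene's strand, ending at the base before the RefSeq start site. For Ltbp1 that site lies upstream of the GENCODE gene start at 75005568 given below. Capitals mark a match to 1 of 5 motifs searched on both strands.
Tgfb2 (chr1:186705990-186706239, minus strand): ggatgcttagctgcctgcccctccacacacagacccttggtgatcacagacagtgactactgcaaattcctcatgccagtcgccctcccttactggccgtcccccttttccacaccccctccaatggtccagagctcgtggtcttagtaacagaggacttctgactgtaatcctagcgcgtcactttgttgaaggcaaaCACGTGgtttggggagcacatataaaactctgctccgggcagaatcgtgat
Inhba (chr13:16011601-16011850, plus strand): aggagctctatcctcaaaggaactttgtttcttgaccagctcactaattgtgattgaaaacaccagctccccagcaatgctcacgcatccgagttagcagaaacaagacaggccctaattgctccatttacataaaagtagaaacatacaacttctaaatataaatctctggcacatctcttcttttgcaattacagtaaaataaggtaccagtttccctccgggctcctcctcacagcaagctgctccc
Ltbp1 (chr17:75005279-75005528, plus strand): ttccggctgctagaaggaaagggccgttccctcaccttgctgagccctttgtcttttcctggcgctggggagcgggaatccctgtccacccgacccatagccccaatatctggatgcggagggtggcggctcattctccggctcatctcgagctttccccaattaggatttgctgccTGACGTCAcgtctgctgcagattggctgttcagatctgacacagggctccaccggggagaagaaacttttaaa
The Tgfb2 window held 1 CACGTG (E-box) at 51 bases before the start site, a motif present in 6.02% of the 32851 windows of the same length in the RefSeq table. The Ltbp1 window held 1 TGACGTCA (CRE/ATF) at 73 bases before the RefSeq start, present in 1.55% of windows. None of these 3 windows held GTCTAGAC (a SMAD palindrome, 0.167% of windows), TGANTCA (AP-1, 6.75%) or GGAATG (TEAD, 12.6%), and no motif overlapped another. Windows were at hand for 6 of the 9 genes, 8 windows in all, and the other 5 windows, of Tgfb1, Tgfbr1, Tgfbr2 and a second Ltbp1 start, held no match. The Inhba window had 43.2% G and C, the Tgfb2 window 53.6% and the Ltbp1 window 56.8%, against a median of 52.4%, while the Tgfb1 window had 75.2%. A match is a description of these letters and shows no binding.

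Among the ligands, Tgfb1 (chr7:25687002-25705077, plus strand, GRCm38) encodes TGF-beta 1, the isoform best known from wound healing and fibrosis. Its level was 38.9, 38.1, 33.7, 39.4 and 38.3 TPM in the EIPA libraries and 30.2, 28.7, 24.7, 29.7 and 29.8 TPM in 0.2 mM vehicle. In 4 mM glutamine it was 19.2, 17.4, 20.5, 16.6 and 22.4 TPM with vehicle and 23.7, 15.7, 19.7, 16.7 and 21.4 TPM with IL-1a. The EIPA libraries lay above all others and the 0.2 mM vehicle libraries above all 4 mM libraries, while the pair of 4 mM groups overlapped. Tgfb1 rose by 0.39 ± 0.10 with EIPA (limma adjusted p = 0.0024), a ratio of mean TPM of 1.32, and by 0.42 ± 0.10 relative to the median gene at 0.2 mM against 4 mM glutamine (limma adjusted p = 2.8e-05). With mitochondrially encoded genes left out, its EIPA difference was 0.34. With IL-1a the difference was 0.01 ± 0.10 (95% interval -0.19 to 0.21).

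Tgfb2 (chr1:186622792-186705989, minus strand) encodes TGF-beta 2, the isoform that binds the type II receptor weakly unless the coreceptor betaglycan presents it. Its level was 3.61, 2.63, 3.15, 3.98 and 3.07 TPM with EIPA against 18.5, 19.5, 16.2, 19.6 and 28.3 TPM in 0.2 mM vehicle. The 4 mM libraries held 29.4, 29.5, 24.4, 30.7 and 30.3 TPM with vehicle and 26.3, 27.5, 20.4, 27.5 and 27.9 TPM with IL-1a. Every EIPA library lay under every other library, 0.2 mM vehicle met the 4 mM range only in replicate 5, and the pair of 4 mM groups overlapped. Tgfb2 fell by 2.31 ± 0.12 with EIPA (limma adjusted p = 3.8e-12), with a mean TPM 6.21 times higher in vehicle. Its fall at 0.2 mM against 4 mM glutamine was smaller, at -0.63 ± 0.12 relative to the median gene (limma adjusted p = 0.00081). At a few TPM the EIPA values could rest on few reads, and the depth behind them is unknown.

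Tgfb3 (chr12:86056745-86079041, minus strand) encodes TGF-beta 3, known for palate closure and scar-poor repair. It held 15.8, 14.1, 14.2, 16.4 and 13.3 TPM with EIPA and 22.7, 19.2, 17.0, 19.2 and 16.1 TPM in 0.2 mM vehicle. The 4 mM libraries held 93.2, 85.1, 85.7, 89.6 and 98.8 TPM with vehicle and 117, 80.4, 63.3, 85.4 and 92.6 TPM with IL-1a. All 4 mM libraries lay above all 0.2 mM libraries, while the EIPA and 0.2 mM vehicle ranges overlapped. The fall between glutamine levels was -2.35 ± 0.11 relative to the median gene (limma adjusted p = 8.1e-13), with a mean TPM 4.80 times higher at 4 mM. The EIPA difference was -0.33 ± 0.11 (limma adjusted p = 0.023), and its call was lost without EIPA replicate 5 (-0.29, limma adjusted p = 0.054) or without 0.2 mM vehicle replicate 1 (-0.26, limma adjusted p = 0.072).

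Because TPM are per length, the 3 ligand transcripts can be set beside each other. Their summed level was 55.7 ± 3.43 TPM with EIPA, 67.9 ± 6.18 TPM in 0.2 mM vehicle, 138.5 ± 8.49 TPM in 4 mM vehicle and 133 ± 23.6 TPM with IL-1a (SD, n = 5). Tgfb3 made up 65.3% ± 0.52 of that sum in 4 mM vehicle and 65.5% ± 3.17 with IL-1a. In 0.2 mM vehicle Tgfb1 was the leading share at 42.2% ± 1.18, with 29.9% ± 4.73 from Tgfb2 and 27.9% ± 3.76 from Tgfb3. With EIPA the Tgfb1 share was 67.7% ± 1.95, the Tgfb2 share 5.89% ± 0.71 and the Tgfb3 share 26.5% ± 1.41. Among these 3 transcripts the most abundant was thus Tgfb3 in every 4 mM library and Tgfb1 in every 0.2 mM library. The Tgfb1 share in the EIPA libraries, 65.9% to 70.1%, did not overlap with that in 0.2 mM vehicle, 40.2% to 43.3%, nor did either overlap with the 4 mM libraries, at 12.1% to 19.0%.

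**Figure D2:**
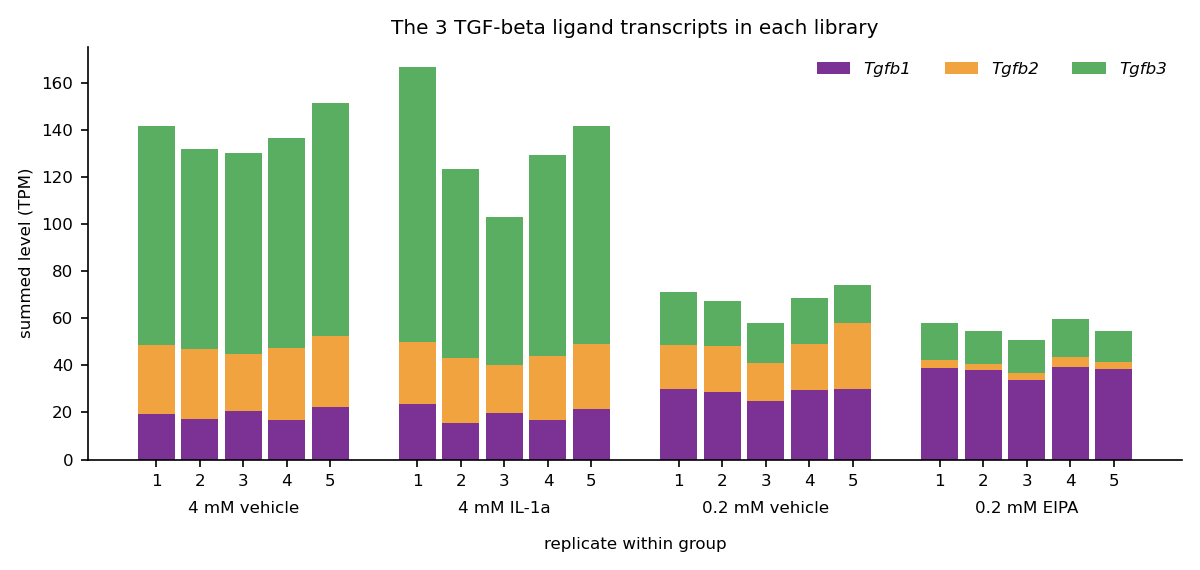
Summed level in TPM (vertical axis) of Tgfb1, Tgfb2 and Tgfb3 as stacked bars, 1 bar per library, numbered by replicate within each group. The 4 mM bars reach 103 to 167 TPM and are mostly Tgfb3, the 0.2 mM vehicle bars reach 57.9 to 74.2 TPM with all 3 transcripts, and in the EIPA bars (51.0 to 59.8 TPM) Tgfb2 is a thin band.

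Inhba (chr13:16011851-16031621, plus strand) encodes the beta A subunit, which pairs with itself to form activin A. Its level was 32.3, 30.0, 32.0, 38.4 and 33.0 TPM with EIPA against 74.4, 71.1, 81.8, 87.2 and 108 TPM in 0.2 mM vehicle. The 4 mM libraries held 56.9, 49.4, 46.7, 41.6 and 24.8 TPM with vehicle and 20.7, 48.4, 50.0, 44.2 and 24.9 TPM with IL-1a. The 0.2 mM vehicle libraries were higher than all others, and the EIPA libraries lay within the span of the 4 mM libraries. Within that span they overlapped with no 4 mM library. They lay above the 3 low-Ccn1 libraries (20.7 to 24.9 TPM) and under the other 7 (41.6 to 56.9 TPM). Inhba fell by 1.31 ± 0.22 with EIPA (limma adjusted p = 4.9e-05), with a mean TPM 2.55 times higher in vehicle. It rose by 0.83 ± 0.22 relative to the median gene at 0.2 mM against 4 mM glutamine (limma adjusted p = 0.00048), a ratio of mean TPM of 1.93. Beside the 3 TGF-beta transcripts, the ratio of Inhba to their sum was 1.25 ± 0.19 in 0.2 mM vehicle, 0.595 ± 0.042 with EIPA, 0.320 ± 0.094 in 4 mM vehicle and 0.303 ± 0.150 with IL-1a.

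Ltbp1 (chr17:75005568-75392512, plus strand) encodes latent TGF-beta binding protein 1, which ties the latent complex to the matrix. It held 58.9, 50.2, 44.5, 66.0 and 54.5 TPM with EIPA and 99.4, 92.8, 90.2, 84.8 and 90.2 TPM in 0.2 mM vehicle. The 4 mM libraries held 164, 159.7, 145, 117 and 91.5 TPM with vehicle and 87.0, 140.0, 145, 106 and 84.9 TPM with IL-1a. The EIPA libraries lay under all others, and 0.2 mM vehicle overlapped with the 4 mM groups only at their 3 low-Ccn1 libraries. Ltbp1 fell by 0.74 ± 0.16 with EIPA (limma adjusted p = 0.00058) and was lower by -0.67 ± 0.16 relative to the median gene at 0.2 mM against 4 mM glutamine (limma adjusted p = 0.0045). With IL-1a it differed by -0.27 ± 0.16 (limma adjusted p = 0.95).

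Of the receptors, Tgfbr1 (chr4:47353222-47414931, plus strand) encodes the type I receptor kinase, known as ALK5. Its level was 23.4, 22.9, 23.3, 22.6 and 21.3 TPM with EIPA, 18.9, 19.0, 18.5, 19.0 and 22.8 TPM in 0.2 mM vehicle, 21.3, 22.2, 21.8, 21.0 and 27.3 TPM in 4 mM vehicle, and 29.0, 22.5, 22.7, 22.4 and 28.2 TPM with IL-1a. All neighbouring groups overlapped, and the 4 group means lay between 19.6 and 25.0 TPM. The EIPA difference was 0.20 ± 0.08 (limma adjusted p = 0.049), and this call held in 13 of 29 alternatives. It was lost under median-of-ratios scaling (0.17, limma adjusted p = 0.074) and under quantile normalisation (0.15, limma adjusted p = 0.10), and with mitochondrially encoded genes left out (0.16, limma adjusted p = 0.13). It was also lost with no filter (limma adjusted p = 0.076) and without any of replicates 1 to 4 of EIPA, 0.2 mM vehicle or 4 mM vehicle (limma adjusted p = 0.053 to 0.10). At 0.2 mM against 4 mM glutamine Tgfbr1 was lower, at an unshifted -0.20 ± 0.08 (limma adjusted p = 0.039), which is -0.33 relative to the median gene. That call ended without 4 mM vehicle replicate 5 (limma adjusted p = 0.14). It also ended without any of 0.2 mM vehicle replicates 1 to 4 or 4 mM vehicle replicate 2 (limma adjusted p = 0.052 to 0.082).

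Tgfbr2 (chr9:116084293-116175360, minus strand) encodes the type II receptor kinase that binds the ligand and activates the type I receptor. It held 26.6, 25.6, 28.1, 31.4 and 28.0 TPM with EIPA and 29.2, 27.0, 29.7, 32.3 and 32.9 TPM in 0.2 mM vehicle. In 4 mM glutamine it held 44.6, 46.9, 51.3, 51.4 and 56.4 TPM with vehicle and 46.0, 42.5, 42.9, 47.4 and 52.8 TPM with IL-1a. Every 4 mM library lay above every 0.2 mM library, and within each glutamine level the groups overlapped. Tgfbr2 was lower by -0.85 ± 0.07 relative to the median gene at 0.2 mM (limma adjusted p = 2.6e-08), and its EIPA difference of -0.11 ± 0.07 was not called (95% interval -0.26 to 0.05, limma adjusted p = 0.24). The ratio of Tgfbr2 to Tgfbr1 TPM was 2.22 ± 0.17 in 4 mM vehicle, 1.87 ± 0.19 with IL-1a, 1.54 ± 0.12 in 0.2 mM vehicle and 1.23 ± 0.12 with EIPA.

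Tgfbr3 (chr5:107106570-107289629, minus strand) encodes betaglycan, the coreceptor that presents TGF-beta 2 and also binds inhibin. It was the one member called with IL-1a, at 32.5, 21.2, 24.2, 18.6 and 20.4 TPM against 12.3, 14.6, 17.5, 14.2 and 15.9 TPM in 4 mM vehicle. In 0.2 mM glutamine it held 7.59, 7.70, 7.32, 9.62 and 7.99 TPM with EIPA and 5.89, 5.36, 4.98, 6.01 and 6.33 TPM with vehicle. No neighbouring groups overlapped, so the 4 groups stood in the order IL-1a, 4 mM vehicle, EIPA, 0.2 mM vehicle. Tgfbr3 rose by 0.60 ± 0.12 with IL-1a (limma adjusted p = 0.022), a ratio of mean TPM of 1.57. It rose by 0.43 ± 0.12 with EIPA (limma adjusted p = 0.0051), a ratio of 1.41, and was lower by -1.38 ± 0.12 relative to the median gene at 0.2 mM against 4 mM glutamine (limma adjusted p = 7e-09). The difference between its EIPA and IL-1a responses was -0.17 ± 0.17 (95% interval -0.52 to 0.18, limma adjusted p = 0.47).

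The IL-1a call of Tgfbr3 was lost under several alternatives. The limma adjusted p was 0.26 when only the IL-1a and 4 mM vehicle libraries were fitted, 0.054 with no filter on low values and 0.083 (difference 0.51) without the 3 low-Ccn1 libraries. With the replicate number as a block it was 0.058. It was 0.071 without IL-1a replicate 3, and 0.092, 0.065 and 0.076 without 4 mM vehicle replicates 1, 2 and 4. The ratio of Tgfbr3 to Tgfbr2 was 0.510 ± 0.134 with IL-1a, 0.298 ± 0.029 in 4 mM vehicle, 0.288 ± 0.018 with EIPA and 0.189 ± 0.014 in 0.2 mM vehicle, and its highest value in vehicle at 4 mM, 0.342, was under its lowest with IL-1a, 0.387.

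Smad7 encodes the inhibitory SMAD that competes for the type I receptor and recruits ubiquitin ligases to it. Its level was 40.0, 38.2, 30.0, 29.9 and 24.0 TPM with EIPA and 29.7, 36.6, 32.5, 24.0 and 27.4 TPM in 0.2 mM vehicle. The 4 mM libraries held 24.0, 28.8, 22.1, 21.9 and 13.2 TPM with vehicle and 14.9, 27.5, 23.6, 19.1 and 14.9 TPM with IL-1a. All neighbouring groups overlapped. The EIPA difference was 0.10 ± 0.19 (95% interval -0.29 to 0.48, limma adjusted p = 0.70), an interval too wide to separate a fall from a rise. Smad7 was higher by an unshifted 0.46 ± 0.19 at 0.2 mM against 4 mM glutamine (limma adjusted p = 0.032), which is 0.32 relative to the median gene. That call was lost under quantile normalisation and under median-of-ratios scaling (limma adjusted p = 0.15 for each), and without 4 mM vehicle replicate 5 the unshifted difference went from 0.46 to 0.30 (limma adjusted p = 0.12). It was also lost without 0.2 mM vehicle replicate 2 (limma adjusted p = 0.085) or 3 (limma adjusted p = 0.064), with no filter (limma adjusted p = 0.065), and without the 3 low-Ccn1 libraries (0.30, limma adjusted p = 0.071).

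**Figure D3:**
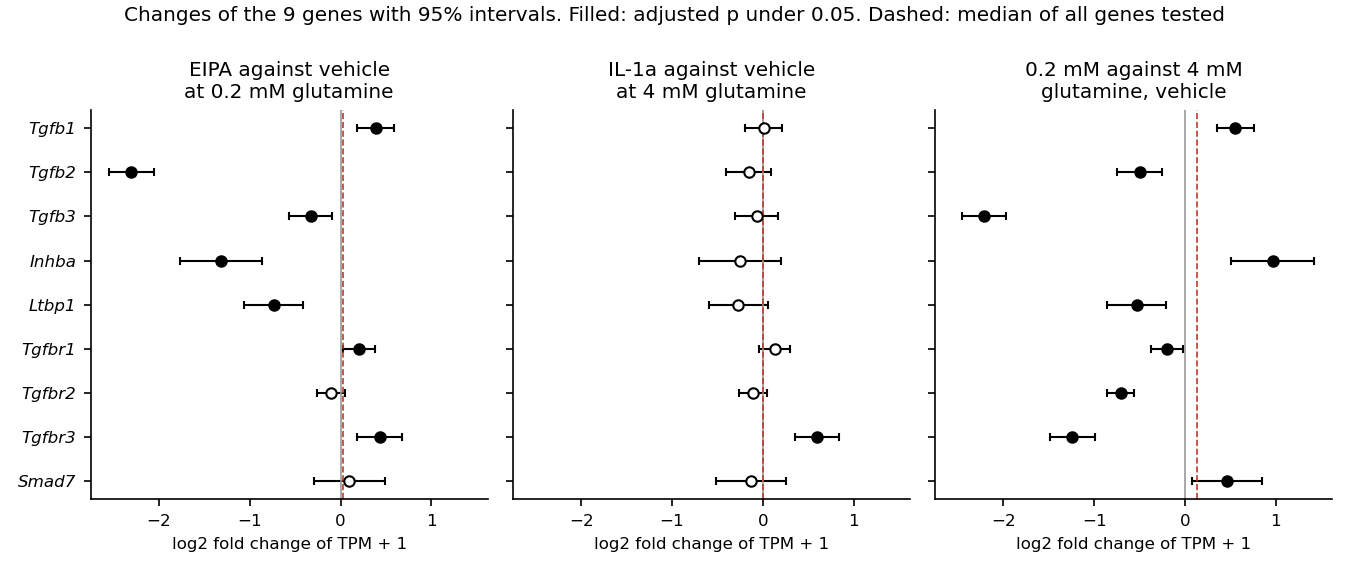
Log2 fold changes of TPM + 1 (horizontal axis) of the 9 genes in 3 comparisons, with 95% intervals; filled points had a limma adjusted p under 0.05, and the dashed line is the median of the 12350 genes tested. In the EIPA panel Tgfb2 (-2.31) and Inhba (-1.31) lie far to the left, in the IL-1a panel only Tgfbr3 (0.60) is filled, and in the glutamine panel, drawn unshifted, all 9 points are filled.

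The EIPA and IL-1a responses share no libraries, and the difference between them was tested directly. Of the 9 genes 3 were called, where 28.9% of all genes tested were called in either direction (2017 higher and 1552 lower, or 1634 and 1880 with mitochondrially encoded genes left out). The response of Tgfb2 to EIPA was lower than that to IL-1a by -2.15 ± 0.17 (limma adjusted p = 1e-08). For Inhba the difference was -1.06 ± 0.31 (limma adjusted p = 0.013). For Tgfb1 it was 0.38 ± 0.14 (limma adjusted p = 0.042), a call that held in 15 of 28 alternatives and was lost without any of EIPA replicates 1, 2, 4 and 5, 0.2 mM vehicle replicates 2 and 3, IL-1a replicates 2 and 4, and 4 mM vehicle replicates 1, 3 and 5 (limma adjusted p = 0.057 to 0.083). It was also lost with mitochondrially encoded genes left out (0.34, limma adjusted p = 0.074) and with no filter (limma adjusted p = 0.075). For Ltbp1 it was -0.47 ± 0.22 (limma adjusted p = 0.12), and -0.57 without the 3 low-Ccn1 libraries (limma adjusted p = 0.016). The 2 treatments were given at different glutamine levels, so agent and glutamine cannot be told apart in this difference.

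Set against replete vehicle, where both glutamine and EIPA differ, 7 of the 9 genes were called in the EIPA libraries, 2 higher (Tgfb1 and Smad7) and 5 lower, where 48.7% of genes were called higher and 28% lower. After median-of-ratios scaling 1 member was higher and 7 were lower, and all genes 4591 higher and 4618 lower in place of 6015 and 3460. Tgfb2 was at -2.98 ± 0.12 relative to the median gene and Tgfb3 at -2.72 ± 0.11, with mean TPM 8.77 and 6.14 times higher in replete vehicle. Inhba, which rose at low glutamine and fell with EIPA, was at 33.1 ± 3.13 TPM against 43.9 ± 12.0 TPM and not called. It was at an unshifted -0.35 ± 0.22 (limma adjusted p = 0.15), which is -0.53 relative to the median gene. Its unshifted difference of -0.35 became -0.54 and was called lower without 4 mM vehicle replicate 5 (limma adjusted p = 0.02) or without the 3 low-Ccn1 libraries (limma adjusted p = 0.00016). It was -0.53 and called lower under median-of-ratios scaling (limma adjusted p = 0.04) and quantile normalisation (limma adjusted p = 0.044). Tgfbr1 was at 22.7 TPM in both groups, with an unshifted difference of 0.01 that turned to -0.17 and was called lower under median-of-ratios scaling (limma adjusted p = 0.046).

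Within the 10 libraries at 4 mM glutamine, several members divided the libraries the way Ccn1 did. In the 3 low-Ccn1 libraries Inhba lay at 20.7 to 24.9 TPM, against 41.6 to 56.9 TPM in the other 7. Smad7 lay at 13.2 to 14.9 against 19.1 to 28.8 TPM, and Ltbp1 at 84.9 to 91.5 against 106 to 164 TPM. Tgfb1 and Tgfbr1 lay above instead, at 21.4 to 23.7 against 15.7 to 20.5 TPM and at 27.3 to 29.0 against 21.0 to 22.7 TPM. For Tgfb2, Tgfb3, Tgfbr2 and Tgfbr3 the same libraries overlapped with the others. These libraries were set apart by their values and come from both 4 mM groups, so they carry no test.

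**Figure D4:**
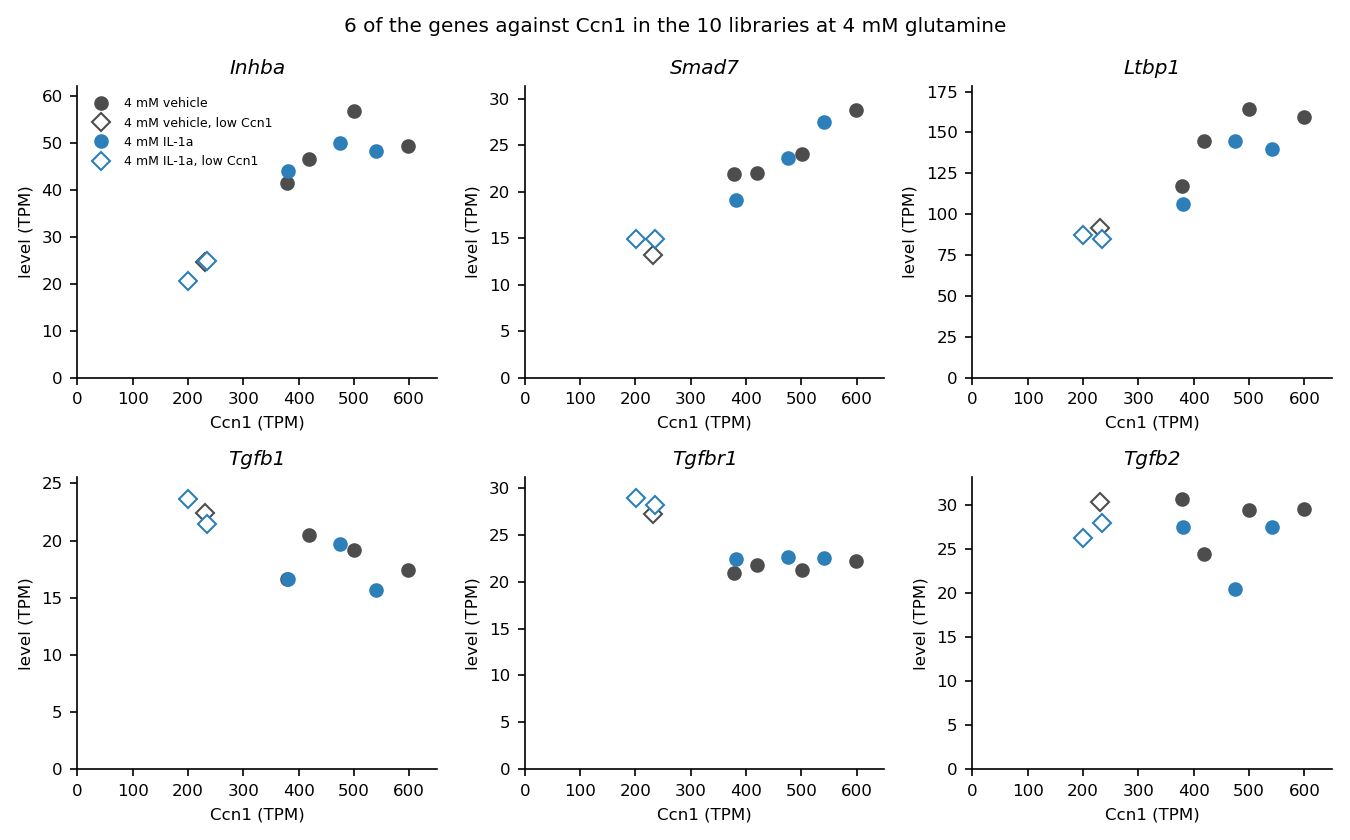
Level in TPM of 6 of the genes (vertical axes, from 0) against Ccn1 (horizontal axis, TPM) in the 10 libraries at 4 mM glutamine, coloured by group; open diamonds are the 3 libraries with Ccn1 at 201 to 235 TPM. Inhba, Smad7 and Ltbp1 are lowest in the diamonds and Tgfb1 and Tgfbr1 highest, while Tgfb2 overlaps with the other 7 libraries.

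Across the wider pathway, the ligand list (18 genes, 13 tested, the 4 ligand members among them) had 4 genes higher and 6 lower with EIPA, and as many at 0.2 mM against 4 mM glutamine, with medians of -0.16 and -0.11 beside 0.02 and 0.14 for all genes. Of all genes tested, 27.4% were called higher and 21.1% lower with EIPA, and 45.4% and 27.9% at low glutamine, so the 10 of 13 called at low glutamine are near that background. Bmp1 is on this list and among the 4 higher with EIPA, but it encodes a protease that processes procollagen and not a ligand. It rose with EIPA (0.34 ± 0.09), as did Gdf11 (0.26 ± 0.08). Bmp4, a bone morphogenetic protein, fell (-0.63 ± 0.11), as did Gdf6 (-0.68 ± 0.15). Both were also lower at 0.2 mM glutamine, Bmp4 by -0.94 ± 0.11 and Gdf6 by -1.25 ± 0.15 relative to the median gene. Gdf11, which rose with EIPA, was lower at 0.2 mM glutamine too, by -0.78 ± 0.08 relative to the median gene. With IL-1a none of the 13 was called.

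The receptor and coreceptor list (15 genes, 12 tested, the 3 receptor members among them) had 4 higher and 1 lower with EIPA. After median-of-ratios scaling these counts were 3 and 2. Tgfbr1 and Tgfbr3 were among the 4 higher. At low glutamine 3 were higher and 4 lower (1 and 5 after that scaling), with Tgfbr1, Tgfbr2 and Tgfbr3 among the 4 lower. With IL-1a the list had Tgfbr3 alone. Its medians were -0.09 with EIPA and -0.03 at low glutamine, beside 0.02 and 0.14 for all genes. Of all genes 27.4% were called higher and 21.1% lower with EIPA, and 45.4% and 27.9% at low glutamine. The EIPA count is near that background, and with mitochondrially encoded genes left out it was 3 higher and 3 lower. At low glutamine a smaller share of the list than of all genes was called in both directions together, but only by few genes. With mitochondrially encoded genes left out that count was 3 higher and 5 lower. Acvr1b, the type I receptor of activin, rose with EIPA (0.54 ± 0.09), from 9.47 ± 1.49 to 14.1 ± 0.51 TPM. Bmpr1b, a type I receptor of bone morphogenetic proteins, fell (-0.41 ± 0.07). At low glutamine the activin type II receptor Acvr2a was higher by 0.36 ± 0.08 relative to the median gene, and Acvr1b was called from an unshifted difference of 0.26 ± 0.09, which is 0.12 relative to the median gene.

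The latency and activation list, which holds binding proteins, fibrillins, integrins, proteases and extracellular antagonists, had 25 of 27 genes tested. With EIPA 15 were lower and 2 higher, with a median of -0.52 beside 0.02 for all genes, of which 21.1% were called lower and 27.4% higher. At low glutamine 18 were lower and 4 higher, with a median of -0.56 beside 0.14 for all genes, of which 27.9% were called lower and 45.4% higher. Ltbp4, a relative of Ltbp1, fell with EIPA by 1.32 ± 0.13, and the microfibril gene Fbn1 by 1.02 ± 0.07. Nog, which encodes the antagonist noggin, fell with EIPA by 2.01 ± 0.24, from 8.50 ± 3.20 to 1.29 ± 0.34 TPM, and was higher at low glutamine by 1.77 ± 0.24 relative to the median gene. Grem1, another antagonist of bone morphogenetic proteins, rose with EIPA (0.77 ± 0.23), as did Furin, the protease that cleaves the TGF-beta precursors (0.39 ± 0.07). At low glutamine Fstl3, an activin-binding protein, was higher by 0.88 ± 0.08, and Thbs1, which encodes an activator of latent TGF-beta, and Emilin1 were each lower by -2.30 relative to the median gene (SE 0.21 and 0.19).

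Among 28 SMADs and intracellular regulators, 15 were higher and 5 lower with EIPA (12 and 7 under median-of-ratios scaling), with a median of 0.18 beside 0.02 for all genes, of which 27.4% were called higher and 21.1% lower. At low glutamine 15 were higher and 7 lower (9 and 10), with a median of 0.22 beside 0.14 for all genes. These counts are near the 45.4% higher and 27.9% lower of all genes. Smurf1, a ubiquitin ligase that acts with Smad7, rose with EIPA by 0.68 ± 0.08, the corepressor gene Tgif1 by 0.63 ± 0.05 and the ubiquitin ligase gene Nedd4l by 0.60 ± 0.11. Tgfb1i1, which encodes the focal adhesion protein Hic-5, fell by 1.52 ± 0.13, Dab2 by 0.38 ± 0.13 and the deubiquitinase gene Usp15 by 0.34 ± 0.05. At low glutamine Smad6, the inhibitory SMAD of the bone morphogenetic protein branch, was lower by -1.79 ± 0.09 and Smad9 by -1.18 ± 0.12, while Tgfbrap1 (0.62 ± 0.06) and the phosphatase gene Ppm1a (0.46 ± 0.06) were higher, all relative to the median gene.

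Of 34 TGF-beta target genes, 17 were lower and 7 higher with EIPA, where 21.1% of all genes were called lower and 27.4% higher, and the list median was -0.31 beside 0.02. At low glutamine 22 were lower and 10 higher, where 27.9% of all genes were called lower and 45.4% higher. The list median there was -0.89 beside 0.14. The list does not give whether TGF-beta raises or lowers each gene, so these counts do not measure pathway activity. The contractile genes Tagln (-2.53 ± 0.22) and Acta2 (-2.31 ± 0.21) and the collagen gene Col3a1 (-2.39 ± 0.18) fell with EIPA, while Elk3 (1.11 ± 0.12), the cell cycle inhibitor gene Cdkn2b (0.85 ± 0.13) and Id1 (0.60 ± 0.13) rose. Relative to the median gene, the matrix gene Tnc (-2.63 ± 0.22) and Id1 (-2.52 ± 0.13) were lower at low glutamine, and Cdkn1a (2.34 ± 0.16) and Klf10 (1.19 ± 0.09) were higher. With IL-1a no gene of the latency, SMAD or target lists was called, while 744 of the 12350 genes had an unadjusted limma p under 0.05. Of the target genes 6 are also on other pathway lists, so the counts are not separate. Smad7, Skil, Pmepa1 and Tgfb1i1 are on the SMAD list, and Ltbp2 and Itgb5 on the latency list. The target genes Col1a1, Col1a2 and Col3a1 are also among the fibroblast markers, as is Dcn of the latency list.

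**Figure D5:**
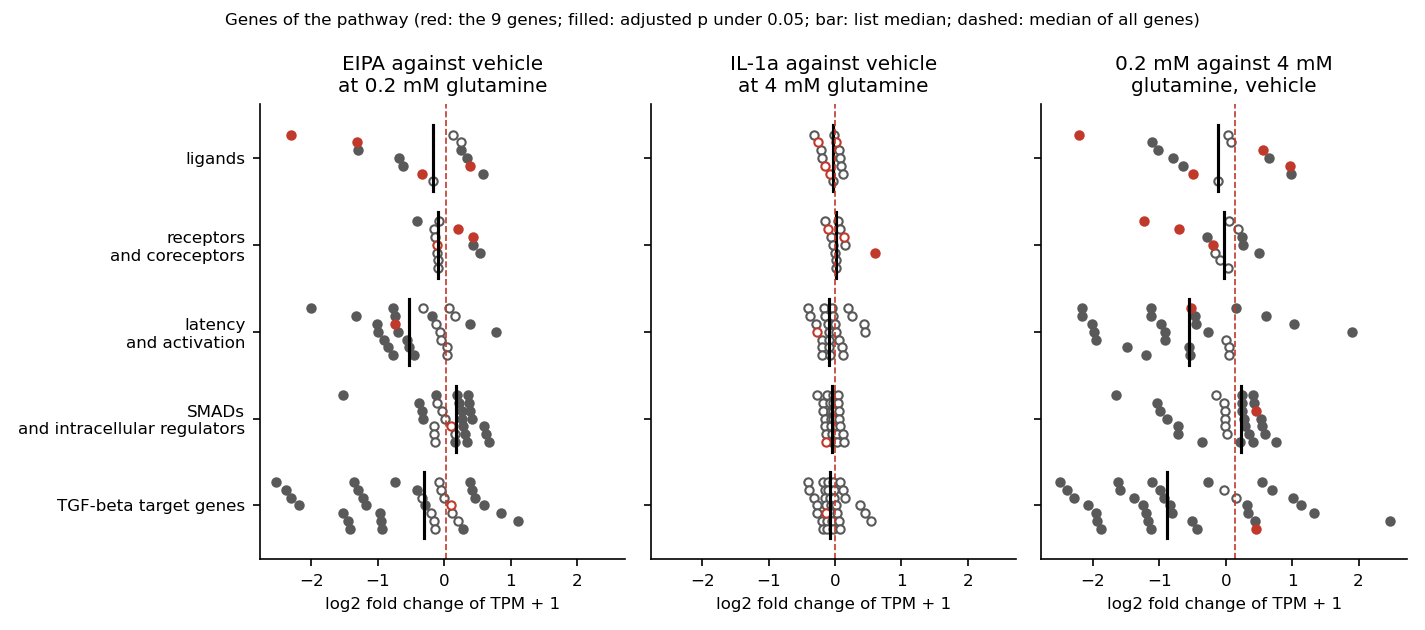
Log2 fold changes of TPM + 1 (horizontal axis, unshifted) of the tested genes of 5 pathway lists in 3 comparisons, 1 point per gene; red points are the 9 genes, filled points had a limma adjusted p under 0.05, bars are list medians and the dashed line is the median of all genes tested. The latency and activation points lie mostly left of the dashed line with EIPA (median -0.52) and at low glutamine (median -0.56), and in the IL-1a panel 1 point, Tgfbr3, is filled.

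Genes whose pattern was most like each member were ranked by Pearson's r of log2(TPM + 1) over the 20 libraries among 10470 genes. The libraries fall into 4 groups, so these r mostly describe group differences and carry no p. Closest to Tgfb1 were Khnyn, Cox7a2l and Ctsl (r of 0.97 each), to Tgfb2 Sema3d, Loxl2 (0.99 each) and Taf9b (0.98), and to Tgfb3 Lxn, Cthrc1 and Col6a2 (0.99 each). Closest to Inhba were Ccn2 (0.97), Vgll3 (0.95) and Dlc1 (0.95), and to Ltbp1 Vim (0.97), Mgll (0.96) and Tnfrsf11b (0.96). For the receptors they were Tnfsf13 (0.92), Sntb2 (0.90) and Hivep2 (0.87) with Tgfbr1, Bnc1 and Cd81 (0.99 each) and Cyp2s1 (0.98) with Tgfbr2, and Socs3 (0.98), Casp1 and Ctps2 (0.97 each) with Tgfbr3. For Smad7 they were Idh3a (0.93), Higd1a (0.90) and Epha2 (0.90). Socs3, a feedback inhibitor of cytokine signalling, ran like Tgfbr3 from 9.56 TPM in 0.2 mM vehicle and 12.2 TPM with EIPA to 23.8 TPM in 4 mM vehicle and 34.3 TPM with IL-1a. Among the members, Tgfb3 and Tgfbr2 were the most alike pair (r = 0.95) and Tgfb1 and Tgfb3 the most opposed (r = -0.88).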

How the data were processed

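PolyA RNA of the 20 libraries was made into cDNA with a Watchmaker kit and read from both ends on an AVITI instrument, per the labels' protocols. The deposited values are TPM from the authors, estimated with RSEM on mm10 per the submitters' processing notes, which give no versions. The sources used here do not give aligner or annotation. Of the 32285 IDs, 32158 were in GENCODE M21 (GRCm38), from which positions were taken.

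Values were analysed as log2(TPM + 1) in limma 3.58.1 (R 4.3.3) with 1 model of 4 groups, a variance trend and no block; a gene was tested if 5 or more libraries had 1 TPM or more (12350 genes), and p-values adjusted by Benjamini-Hochberg over all of them. The scripts were tested on simulated data. Named genes were all 9 members, the 3 genes most like each, and from each list the called non-members of largest change (3 per direction for EIPA, otherwise 2) whose higher group had a mean of 5 TPM or more; list genes are named here for the EIPA and glutamine comparisons. Members, lists and rules were chosen with earlier results of these data known. Alternatives were a pseudocount of 0.1, no filter, a mean of at least 5 TPM, median-of-ratios scaling, quantile normalisation, mitochondrially encoded genes left out, the replicate number as a block, only the groups compared, and leaving out each library or the 3 low-Ccn1 libraries. No libraries had identical values.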

Additional observations from a re-analysis of the deposited data

Results flagged for a closer look

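In 7 of 36 sets of 5 libraries (9 genes in 4 groups) the highest or lowest library stood off from the rest by Dixon's criterion, which chance meets in about 1 set of 20. Tgfb1 was lowest in replicate 3 of both 0.2 mM groups, at 33.74 TPM with EIPA and 24.7 TPM with vehicle. Tgfb2 was lowest in replicate 3 of both 4 mM groups, at 20.41 TPM with IL-1a and 24.35 TPM with vehicle, and highest in replicate 5 of 0.2 mM vehicle, at 28.27 TPM. Tgfbr1 was highest in replicate 5 of both vehicle groups, at 22.78 TPM in 0.2 mM and 27.27 TPM in 4 mM glutamine, the latter being a low-Ccn1 library. By the test of the difference itself, the EIPA and IL-1a responses differed for Tgfb1 (0.3785 on the log2 scale), Tgfb2 (-2.1511) and Inhba (-1.0624). The Tgfb1 call held in only 15 of 28 alternatives, while those of Tgfb2 and Inhba held in all 28.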

How the results depend on the processing

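Over 45 results of the 9 genes and 1296 alternatives, 1207 kept direction and side of the threshold, 55 lost the call, 5 gained it and 29 changed sign. A change of filter, or leaving out a library of a group not compared, leaves the estimate itself unchanged. Such alternatives could move only the adjusted p, so the 1207 overstates how stable the directions are. Where no cause follows from the alternative's own construction, the cause was not tested. With IL-1a the number of members called was 0 with no filter, with the replicate block, with only the groups compared and without the 3 low-Ccn1 libraries, and with only the groups compared 19 genes were called in all. Leaving out 1 library at a time gave 5424 to 6152 genes and 5 to 7 members called with EIPA, 27 to 47 and 0 to 1 with IL-1a, 8764 to 9139 and 7 to 9 between glutamine levels, 9188 to 9627 and 7 to 8 for EIPA against 4 mM vehicle, and 3137 to 3759 and 2 to 3 for the difference of responses. At low glutamine 5606 genes were higher and 3449 lower, but 4385 and 4438 under median-of-ratios scaling; with EIPA the split was 3383 and 2603, or 2912 and 2970.

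Every change of sign was in a difference that was not called as reported. For Tgfb1 with IL-1a it was -0.0042 under median-of-ratios scaling, -0.0094 under quantile normalisation, -0.0829 without the 3 low-Ccn1 libraries, and -0.064, -0.0002 and -0.0296 without IL-1a replicates 1, 3 and 5, and -0.0235 and -0.0401 without 4 mM vehicle replicates 2 and 4, in a range over single libraries left out of -0.064 to 0.0769. Tgfb3 with IL-1a was 0.0397 without IL-1a replicate 3 (range -0.18 to 0.0397). Tgfbr1 with EIPA against 4 mM vehicle was -0.1712 under median-of-ratios scaling, -0.186 under quantile normalisation, -0.0646 with mitochondrially encoded genes left out, -0.0046 and -0.0035 without EIPA replicates 1 and 3, and -0.015, -0.0068 and -0.0197 without 4 mM vehicle replicates 1, 3 and 4 (range -0.0197 to 0.0714); it was called lower under both scalings. The Tgfbr2 difference between the responses was -0.0197, -0.0384 and -0.0389 in these 3 settings, -0.0385 without EIPA replicate 4, -0.0083, -0.0352 and -0.0025 without 0.2 mM vehicle replicates 1 to 3, -0.0262 and -0.0232 without IL-1a replicates 2 and 3, and -0.0063, -0.007 and -0.0398 without 4 mM vehicle replicates 3 to 5 (range -0.0398 to 0.0506).

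Replicate numbers are shared across groups, but same-numbered libraries deviated together only in part, so they were not taken as pairs. For EIPA r was 0.06 to 0.32, with 4 of 5 libraries closest to their own number. Between glutamine levels in vehicle r was 0.05 to 0.17, also with 4 of 5. For IL-1a r was -0.28 to 0.60, and for EIPA against 4 mM vehicle -0.06 to 0.29, each with 2 of 5. Whether the numbers mark an effect shared across groups was not tested. With the replicate block 6305 genes were called with EIPA, 39 with IL-1a and 9230 between glutamine levels, and the Tgfbr3 call with IL-1a was lost (limma adjusted p = 0.058). TPM keep no depth, so the counting error of genes of a few TPM, such as Tgfb2 with EIPA, is unknown.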
